A study of Mus musculus with 11 samples.

Results

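The matrix metalloproteinases (Mmp), the Adam and Adamts proteases with their Adamts-like relatives, and the 4 tissue inhibitors of metalloproteinases (Timp) were followed in mouse heart RNA across 3 kinds of Cd36 deletion and a Control. The genes were taken by name from a table of normalized read counts, as the symbols that begin with Mmp, Timp, Adam or Adamts and have a mean of at least 5 over the 11 libraries. This gave 48 genes of 84 symbols of these families in a table of 23420 genes; 36 symbols lay under the threshold, 15 of them at 0 in every library. Just inside were Adamts19, Mmp16 and Adam12, with means of 6.54, 8.06 and 8.29, and just outside were Mmp12 and, below Mmp27, Mmp13, with means of 4.71 and 3.78.

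The tissue was whole heart, so a level is a sum over all its cell types, and fewer cells of a type cannot be told apart from less RNA per cell. There were 3 Total cd36 ko hearts, 3 EC cd36 KO hearts, 3 MHC cd36 KO hearts and 2 Control hearts, and every sample carries the strain label of Cd36 loxp mice. EC cd36 KO denotes deletion with Tie2-cre, whose promoter drives the recombinase in endothelial cells and also in part of the blood lineage. MHC cd36 KO denotes deletion with MHC-cre, driven by the cardiac myosin heavy chain promoter in cardiomyocytes. How the Total cd36 ko animals were made, whether the Control animals carried a Cre, and the animals' age and sex are not given in the sources used here. No group is labelled as carrying MHC-cre without the deletion, so an effect of the MHC-cre transgene cannot be told apart from that of the deletion. The labels number each library separately but do not say that each is another animal. The p-values therefore weigh a difference only against the spread between these samples, pooled over the 4 groups.

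Cd36 itself had 18847, 23452 and 21266 in Total cd36 ko hearts, 30308, 27804 and 25758 in EC cd36 KO hearts and 15792, 21610 and 21363 in MHC cd36 KO hearts, against 44530 and 35425 in Control hearts, in normalized read counts. All 9 libraries labelled as deleted were below both Control libraries. The log2 difference from Control was -0.91 ± 0.17 (SE), adjusted p = 0.0871 for Total cd36 ko, -0.51 ± 0.17 (SE), adjusted p = 0.311 for EC cd36 KO and -1.03 ± 0.17 (SE), adjusted p = 0.00882 for MHC cd36 KO (limma). Only the last of these passed. It did not pass without Control replicate 1 (-0.87) or with MHC cd36 KO and Control fitted alone (-1.03). Total cd36 ko passed without MHC cd36 KO replicate 1 (-0.91). The Total cd36 ko difference was also called by DESeq2 (-0.92, adjusted p = 1.79e-05), with quantile normalization (-1.02), equal library totals (-0.96) or array weights (-0.89), and without replicate 1 of the 3 deleted groups together (-0.83). Total cd36 ko hearts kept about as many Cd36 reads as MHC cd36 KO hearts. The deleted exons are not given in the sources used here, so reads summed over the gene do not check how complete the deletion was.

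The libraries held between 2268403 and 20105673 reads assigned to genes. EC cd36 KO replicate 1 was the shallowest, and 1 of its reads is worth 6.04 normalized counts, so a gene with few counts is coarse in that heart. MHC cd36 KO replicate 1 stood apart from the other 2 hearts of its group, with 40025 summed myofibroblast marker counts against 7775 and 9440 in replicates 2 and 3. Values without it are given for each family gene called against Control. After EC cd36 KO replicate 1, Total cd36 ko replicate 1 was the shallowest library, with 11157062 reads. Replicate 1 of these 3 groups was also left out together, and the labels link no batch to that number. The numbers in the labels run separately for the MHC cd36 KO hearts, for the Total cd36 ko hearts and for the EC cd36 KO and Control hearts together, so a batch that follows those numbers cannot be told apart from the MHC cd36 KO or Total cd36 ko group.

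Matrix metalloproteinases are zinc enzymes that cut collagens, gelatins, fibronectin and other proteins of the extracellular matrix, and most are secreted or held at the membrane as inactive proenzymes. Adam proteases shed the outer parts of membrane proteins, whereas Adamts proteases are secreted and process procollagen, trim proteoglycans such as versican and aggrecan, or act on microfibrils. Timp proteins bind the active site of these enzymes in a complex of equal parts and block it. In the injured or overloaded heart the balance of Mmp and Timp proteins is known for its part in remodelling of the collagen network, with fibroblasts and macrophages as major sources.

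The active site is what separates the proteases among these genes from their relatives without protease activity. The stretch that codes for the 3 zinc-binding histidines is shown for the 5 proteases called in MHC cd36 KO hearts against Control, for Mmp14 as the activator of Mmp2 and for Adamts8 as the 1 serine form. It was read from the longest coding transcript in GENCODE M21 on GRCm38 (mm10), 5′ to 3′ on the coding strand. Capitals mark the codons of the 3 histidines and, before the last of them, the codon of a glycine, asparagine or serine.
Mmp2: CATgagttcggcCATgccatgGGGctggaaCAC
Mmp23: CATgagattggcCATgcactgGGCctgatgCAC
Mmp14: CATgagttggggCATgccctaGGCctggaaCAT
Adam33: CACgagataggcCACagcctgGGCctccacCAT
Adamts2: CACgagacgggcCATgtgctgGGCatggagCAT
Adamts20: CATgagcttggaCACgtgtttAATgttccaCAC
Adamts8: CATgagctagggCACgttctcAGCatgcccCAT
Mmp2 is read at chr8:92839279-92839311 on the plus strand, Mmp23 at chr4:155651528-155651560 on the minus strand and Mmp14 at chr14:54437627-54437659 on the plus strand, each within 1 coding exon. Adam33 is read at chr2:131055130-131055162 on the minus strand. The Adamts sites each span a splice junction, so that the intron lies between the ends given: Adamts2 at chr11:50775403-50776134 (plus strand), Adamts20 at chr15:94353678-94355296 (minus strand) and Adamts8 at chr9:30952721-30953378 (plus strand). Such a site was found in 36 of the protease-family members, with glycine in 30, asparagine in 5 and serine in 1. All 5 asparagine forms and the serine form, that of Adamts8, belong to the 7 Adamts genes grouped as proteoglycanases. The other 8, Adam11, Adam22, Adam23 and Adamtsl1 to Adamtsl5, held no match in the transcript read.

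The inhibitors have no such site. Their mature amino terminus begins with a cysteine that occupies the zinc of the protease, and the codons of the first and the third residue, both cysteine, are in capitals below.
Timp1: TGTagcTGTgccccaccccacccacag
Timp2: TGCagcTGCtccccggtgcacccgcaa
Timp3: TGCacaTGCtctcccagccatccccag
Timp4: TGCagcTGTgcgcctgcgcacccccag
These stretches lie at chrX:20871111-20871137 (plus strand), chr11:118354986-118355012 (minus strand), chr10:86300923-86300949 (plus strand) and chr6:115251665-115251691 (minus strand). The cysteine pair was present in all 4 genes, so it does not separate the genes that rose below from the gene that fell.

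By limma, every call between 2 groups among these genes involved the MHC cd36 KO hearts. Against Control, 8 of the 48 genes rose and 1 fell, among 13787 genes tested together with limma at a Benjamini-Hochberg adjusted p under 0.05. Over all genes 3.1% rose and 2.24% fell. The risen genes were Timp1, Timp2, Mmp2, Mmp23, Adam33, Adamts2, Adamts20 and Adamtsl2, and the gene that fell was Timp4. The median log2 difference of the 48 genes was 0.37, against -0.002 for all genes. In 22 of the 48 genes every MHC cd36 KO library lay above both Control libraries, against 18.3% of all genes, and in 5 every one lay below, against 17.9%. Adamts19 met the threshold of 5 only through the MHC cd36 KO hearts, with a mean of 11.3 there and 4.75 over the other 8 libraries; without it the count above Control was 21 of 47. At an unadjusted p under 0.05 there were 16 family genes, against 20.3% of all genes. Without Control replicate 1 only Timp1 of the 9 passed, among 27 genes in all, and with MHC cd36 KO and Control fitted alone 2 passed, Timp1 and Mmp23. Without replicate 1 of the EC cd36 KO, MHC cd36 KO and Total cd36 ko groups together, 7 passed.

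No family gene passed in Total cd36 ko or EC cd36 KO hearts against Control, where 0.0798% (0.058% higher and 0.0218% lower) and 0.261% (0.131% in each direction) of all genes passed. At an unadjusted p under 0.05 there were 2 family genes for Total cd36 ko, where 7.82% of all genes were below it, and 6 for EC cd36 KO, where 10.2% were. EdgeR's quasi-likelihood test on the recovered whole reads also called 0 in both, and DESeq2 called 0 for Total cd36 ko and 1, Timp3, for EC cd36 KO. Between Total cd36 ko and EC cd36 KO 0 genes passed by limma, edgeR or DESeq2, with 0.0363% of all genes called by limma and 4 family genes at an unadjusted p under 0.05, against 10.4% of all genes. The Total cd36 ko libraries lay above all EC cd36 KO libraries in 4 family genes, against 10.5% of all genes, and below in 5, against 8.86%.

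The MHC cd36 KO hearts also differed from the other deleted hearts. In EC cd36 KO minus MHC cd36 KO 1 family gene was higher and 12 were lower, against 8.08% and 9.9% of all genes. All EC cd36 KO libraries lay below all MHC cd36 KO libraries in 20 of the 48 genes, against 19.5% of all genes, and above in 4, against 18.5%. At an unadjusted p under 0.05 there were 21, against 33.4%; 18% of all genes passed after adjustment. In Total cd36 ko minus MHC cd36 KO 1 was higher and 11 were lower, against 7.63% and 7.73%, or 15.4% in all. The libraries lay below those of MHC cd36 KO in 19 genes, against 19.3% of all genes, and above in 3, against 18.8% (18 and 3 of 47 without Adamts19), with 18 genes at an unadjusted p under 0.05, against 29.4%. Timp1, Timp2, Mmp2, Mmp23, Adamts2, Adamts20 and Adamtsl2 were higher in MHC cd36 KO than in each of the 3 other groups, as were 2.52% of all genes, and Timp4 was lower than in each, as were 1.61%. These comparisons share the MHC cd36 KO libraries, so they are not independent of each other. With libraries rescaled to equal totals the median of all genes shifted by -0.12 in the EC cd36 KO and by -0.14 in the Total cd36 ko contrast, and 1 family gene was higher and 14 were lower in each. Over all genes the split with equal totals was 637 higher and 2119 lower for EC cd36 KO, where the deposited scaling gave 1114 and 1365. For Total cd36 ko it was 542 higher and 1736 lower, where the deposited scaling gave 1052 and 1066. A moderated F test over the 3 contrasts against Control called 12 family genes and 13.4% of all genes; it called 7 without MHC cd36 KO replicate 1, without MHC cd36 KO replicate 3 or without Total cd36 ko replicate 3.

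**Figure D1:**
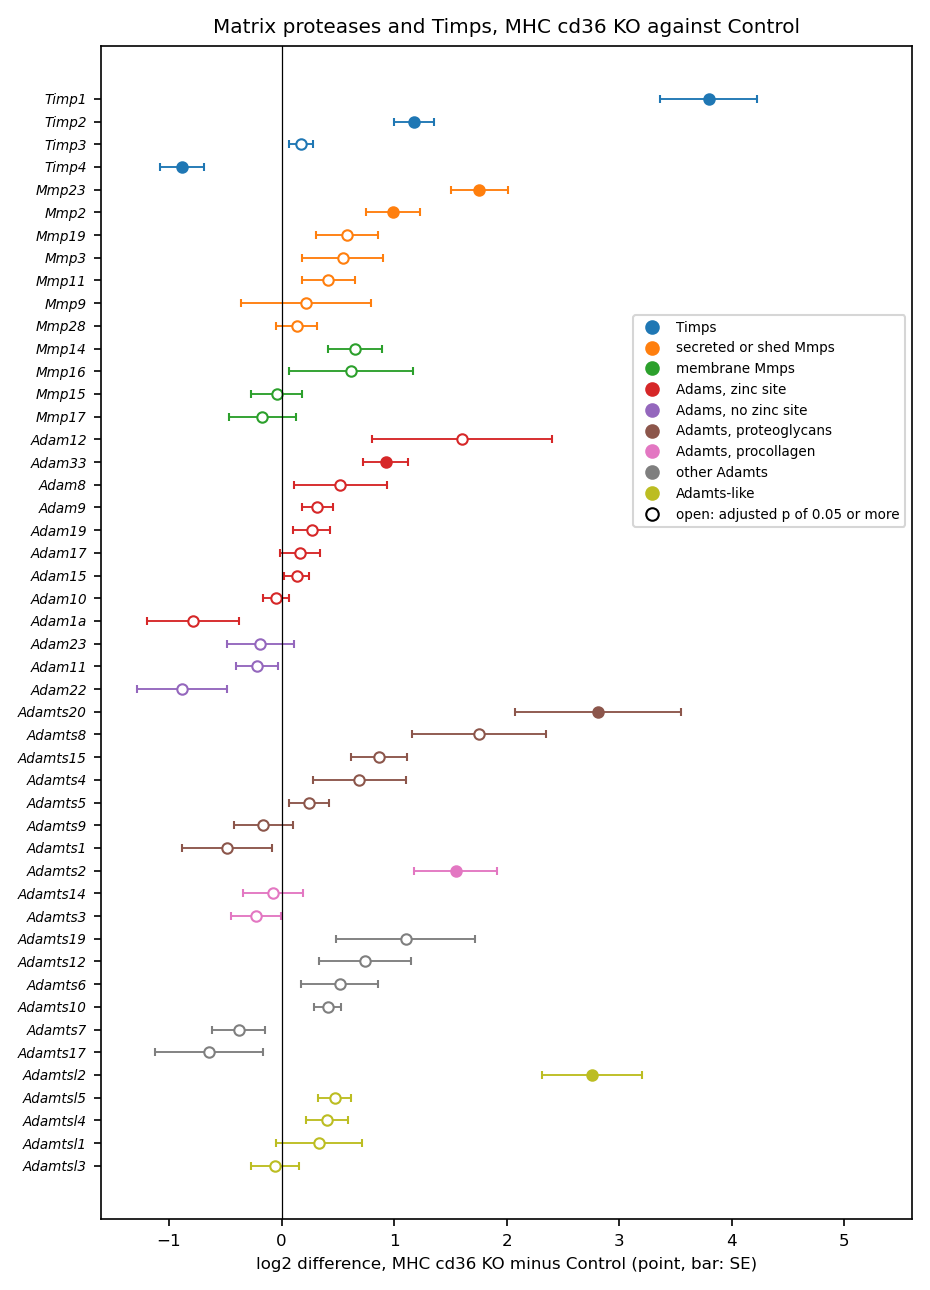
Log2 difference of each of the 48 genes, MHC cd36 KO minus Control, on the horizontal axis (point: limma estimate, bar: SE), grouped by role and coloured by it. Filled points passed at an adjusted p under 0.05: 8 lie to the right of 0, from Adam33 at 0.93 to Timp1 at 3.79, and Timp4 at -0.89 lies to the left.

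Among the inhibitors, Timp1 and Timp2 rose in MHC cd36 KO hearts, Timp4 fell and Timp3 did not pass. Timp1 (chrX:20870166-20874735, plus strand, within the span of Syn1 on the other strand, with 0 exon bases shared) encodes the inducible inhibitor of most soluble Mmp enzymes. It had 22.9, 37.5 and 27.5 in Total cd36 ko hearts, 24.2, 18.4 and 31.8 in EC cd36 KO hearts and 583, 216 and 284 in MHC cd36 KO hearts, against 14.8 and 35.04 in Control hearts. Each MHC cd36 KO heart was above every other heart, with a group mean of 361 ± 196 against 24.9 ± 14.3 (SD, n = 3 and n = 2), or 14.5 times Control. Its log2 difference was 3.79 ± 0.43 (SE), adjusted p = 0.00137 by limma. It passed under each alternative setting and without any 1 library, with 3.38 without MHC cd36 KO replicate 1, 3.20 without Control replicate 1 and 4.39 without Control replicate 2.

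Timp2 (chr11:118301069-118355740, minus strand) encodes an inhibitor that also joins Mmp14 in the complex that activates Mmp2 at the cell surface. Its counts were 2036, 2207 and 2130 in Total cd36 ko hearts, 2169, 2070 and 1959 in EC cd36 KO hearts and 5795, 3290 and 4747 in MHC cd36 KO hearts, against 1864 and 2114 in Control hearts. The 3 MHC cd36 KO hearts again lay above all others, at 2.32 times the Control mean. The difference from Control was 1.18 ± 0.18 (SE), adjusted p = 0.00641 by limma, with 0.99 without MHC cd36 KO replicate 1. It was not called without Control replicate 1 (1.09), and its difference from EC cd36 KO and Total cd36 ko hearts (-1.12 and -1.08 for those groups minus MHC cd36 KO) passed without any 1 library.

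Timp4 (chr6:115241892-115252205, minus strand) encodes the inhibitor known for its high level in the heart. It had 1217, 927 and 1099 in Total cd36 ko hearts, 1450, 1391 and 1534 in EC cd36 KO hearts and 555, 899 and 643 in MHC cd36 KO hearts, against 1514 and 1057 in Control hearts. All MHC cd36 KO hearts were below all other hearts, at 0.544 of the Control mean. The log2 difference was -0.89 ± 0.19 (SE), adjusted p = 0.0244 by limma, and the 2 Control hearts themselves spread over 1057 to 1514. It was not called without MHC cd36 KO replicate 1 (-0.73), MHC cd36 KO replicate 3 (-0.84) or Control replicate 1 (-0.63). The difference EC cd36 KO minus MHC cd36 KO was 1.09 ± 0.17 (SE), adjusted p = 0.00179, which passed without any 1 library. Total cd36 ko minus MHC cd36 KO was 0.65 ± 0.17 (SE), adjusted p = 0.0252, and it was not called without MHC cd36 KO replicates 1 (0.50) or 3 (0.60) or Total cd36 ko replicates 1 (0.56) or 3 (0.63), nor without replicate 1 of the 3 deleted groups together (0.41). Syn2, on the other strand, overlaps 1.53% of the exon bases of Timp4.

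Timp3 (chr10:86300372-86349506, plus strand) encodes the matrix-bound inhibitor, which also blocks Adam17 and the aggrecanases. It had 7209, 6210 and 7285 in Total cd36 ko hearts, 7541, 8223 and 7250 in EC cd36 KO hearts and 6964, 6268 and 6468 in MHC cd36 KO hearts, against 5940 and 5689 in Control hearts. All 9 hearts of the deleted groups lay above both Control hearts. MHC cd36 KO minus Control was 0.17 ± 0.11 (SE), adjusted p = 0.395 and EC cd36 KO minus Control was 0.40 ± 0.11 (SE), adjusted p = 0.182 by limma, so neither passed. DESeq2 called the EC cd36 KO difference at 0.40 (adjusted p = 0.0267), the 1 such call by that tool. Syn3 on the other strand shares 21.3% of its exon bases, and Syn3 had at most 53.9 normalized counts in any library.

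**Figure D2:**
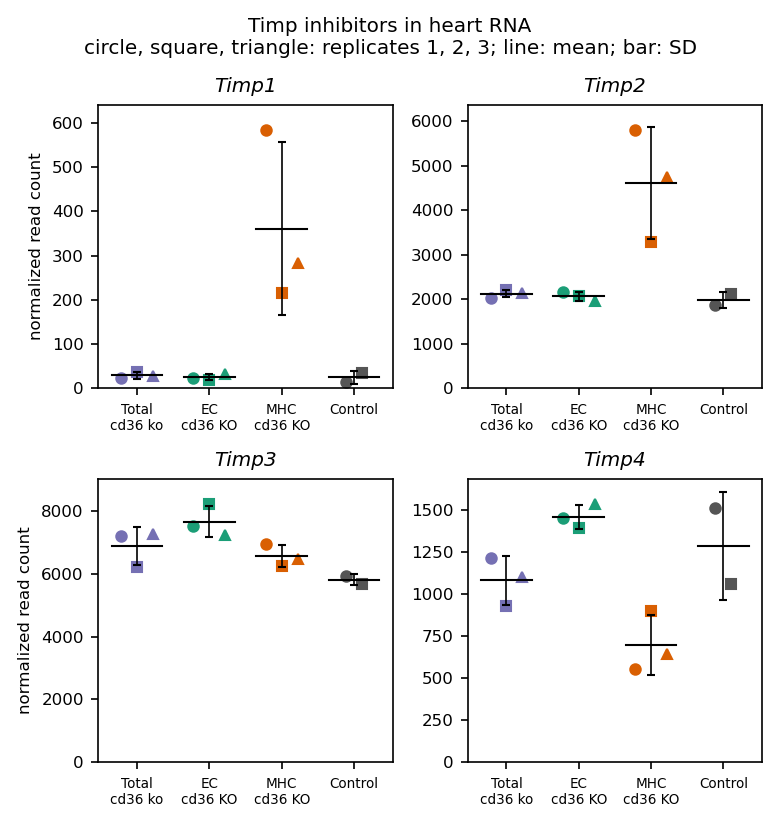
Normalized read counts of the 4 Timp genes in each library, by group, with replicates as circle, square and triangle, the group mean as a line and the SD as a bar. The MHC cd36 KO libraries are the highest for Timp1 and Timp2 and the lowest for Timp4, and for Timp3 they lie among the others.

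Per kilobase of exon the make-up of the Timp pool differed in the same hearts. Timp1 made up 21.2, 12.1 and 13.1% of the summed Timp level per kilobase in MHC cd36 KO hearts, against 1.12 and 2.70% in Control hearts. Timp4 made up 3.04, 7.59 and 4.47% in MHC cd36 KO hearts, against 17.3 and 12.3% in Control hearts. Timp3 held the largest share in Control hearts, at 49.2 and 47.8%, and in MHC cd36 KO hearts it had 27.6, 38.3 and 32.5%, below the 48.1, 42.0 and 49.9% of Timp2 in each of the 3. The sum itself was 3093, 2009 and 2441 normalized counts per kilobase in MHC cd36 KO hearts and 1481 and 1460 in Control hearts, without overlap. In Total cd36 ko and EC cd36 KO hearts Timp1 stayed between 1.15% and 2.76%. These shares are descriptions with no test, and they use merged exon lengths rather than the transcripts present.

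**Figure D3:**
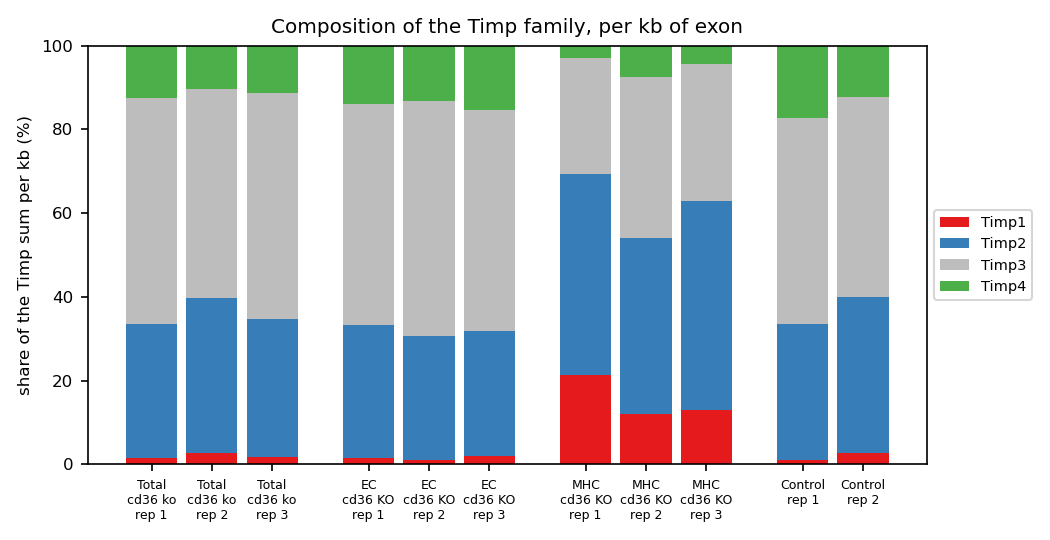
Share of each Timp gene in the summed Timp level per kilobase of exon (percent, vertical axis) in each of the 11 libraries. Timp1 and Timp2 together take a larger part, and Timp3 and Timp4 a smaller part, of the bars of the 3 MHC cd36 KO libraries.

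Of the 7 secreted or shed Mmp genes, Mmp2 and Mmp23 rose in MHC cd36 KO hearts against Control and none fell. Mmp2 (chr8:92827291-92853420, plus strand) encodes gelatinase A. It had 951, 1287 and 1129 in Total cd36 ko hearts, 888, 889 and 927 in EC cd36 KO hearts and 3364, 1512 and 1995 in MHC cd36 KO hearts, against 1024 and 1157 in Control hearts. Each MHC cd36 KO heart exceeded every other heart, at 2.1 times the Control mean, and the log2 difference was 0.99 ± 0.24 (SE), adjusted p = 0.0351 by limma. The adjusted p was close to the threshold: it was not called without MHC cd36 KO replicate 3 (1.05), Control replicate 1 (0.90), Control replicate 2 (1.08), or EC cd36 KO replicate 2 or Total cd36 ko replicate 3 (0.99 for each), and was 0.67 without MHC cd36 KO replicate 1. For EC cd36 KO minus MHC cd36 KO it was -1.26 ± 0.22 (SE), adjusted p = 0.00273 and passed without any 1 library. Total cd36 ko minus MHC cd36 KO was -0.96 ± 0.22 (SE), adjusted p = 0.0133; it was not called without Total cd36 ko replicate 1 (-0.84) and was -0.53 without replicate 1 of the 3 deleted groups together.

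Mmp23 (chr4:155650655-155653384, minus strand) encodes a protease made as a membrane-bound proenzyme that is released by cleavage. Its counts were 108, 126 and 128 in Total cd36 ko hearts, 133, 105 and 82.2 in EC cd36 KO hearts and 630.3, 321 and 398 in MHC cd36 KO hearts, against 116 and 139 in Control hearts. None of the MHC cd36 KO hearts overlapped the rest, and they averaged 3.53 times Control. On the log2 scale this was 1.76 ± 0.26 (SE), adjusted p = 0.00583 by limma, with 1.49 without MHC cd36 KO replicate 1; it was not called without Control replicate 1 (1.62). For EC cd36 KO and Total cd36 ko minus MHC cd36 KO it was -2.04 and -1.84, which passed without any 1 library.

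The other 5 secreted Mmp genes did not pass against Control in MHC cd36 KO hearts, with log2 differences between 0.14 (Mmp28, epilysin) and 0.58 (Mmp19). Mmp9, gelatinase B, was low throughout, with 30.6, 9.38 and 6.67 in Total cd36 ko hearts, 6.04, 16.7 and 15.0 in EC cd36 KO hearts and 13.1, 18.8 and 22.9 in MHC cd36 KO hearts, against 15.5 and 14.9 in Control hearts, and the groups overlapped. Mmp3, stromelysin-1, averaged 84.7 ± 32.7 in MHC cd36 KO hearts and 56.6 ± 22.1 in Control hearts (SD, n = 3 and n = 2). Mmp11, stromelysin-3, was -0.66 ± 0.21 (SE), adjusted p = 0.0471 for EC cd36 KO minus MHC cd36 KO by limma. This was not called when any library but MHC cd36 KO replicate 2 or Total cd36 ko replicates 1 or 2 was left out. Over the 11 exclusions it ran from -0.81 to -0.55. It was also not called without replicate 1 of the 3 deleted groups together (-0.44). Chchd10, on the other strand, overlaps 5.58% of its exon bases. Per kilobase Mmp2 was the leading Mmp in every library, at 58.0, 44.9 and 49.8% of the Mmp sum in MHC cd36 KO hearts and 46.0 and 41.8% in Control hearts. Mmp23 had 15.6, 13.8 and 14.3% in MHC cd36 KO hearts and 7.48 and 7.26% in Control hearts.

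Of the 4 membrane-type Mmp genes none passed against Control. Mmp14 (chr14:54431612-54445364, plus strand) encodes the membrane-type collagenase that activates Mmp2. It had 233, 376 and 239 in Total cd36 ko hearts, 308, 411 and 336 in EC cd36 KO hearts and 788, 469 and 548 in MHC cd36 KO hearts, against 333 and 418 in Control hearts. The MHC cd36 KO hearts were above all others, but their difference from Control, 0.65 ± 0.24 (SE), adjusted p = 0.143 by limma, did not pass. Total cd36 ko minus MHC cd36 KO was -1.09 ± 0.21 (SE), adjusted p = 0.00729, and passed without any 1 library (-0.88 without MHC cd36 KO replicate 1), but not without replicate 1 of the 3 deleted groups together (-0.75). In EC cd36 KO minus MHC cd36 KO it was -0.75 ± 0.21 (SE), adjusted p = 0.0296, and it was not called without EC cd36 KO replicates 1 (-0.66) or 3 (-0.72) or MHC cd36 KO replicates 1 (-0.54) or 3 (-0.80), and was -0.45 without those 3 libraries.

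Mmp15, another membrane-type enzyme, had 863, 626 and 733 in Total cd36 ko hearts, 604, 751 and 701 in EC cd36 KO hearts and 796, 910.5 and 806 in MHC cd36 KO hearts, against 609 and 1221 in Control hearts. Control replicate 2 was the highest of all libraries and Control replicate 1 lay below all but 1, and MHC cd36 KO minus Control was -0.044 ± 0.23 (SE), adjusted p = 0.945 by limma; without Control replicate 2 it was 0.46. Mmp16 and Mmp17 averaged 12.6 ± 3.69 and 45.6 ± 10.1 in MHC cd36 KO hearts, against 8.05 ± 4.004 and 50.6 ± 0.125 in Control hearts (SD, n = 3 and n = 2), and neither passed in any contrast.

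**Figure D4:**
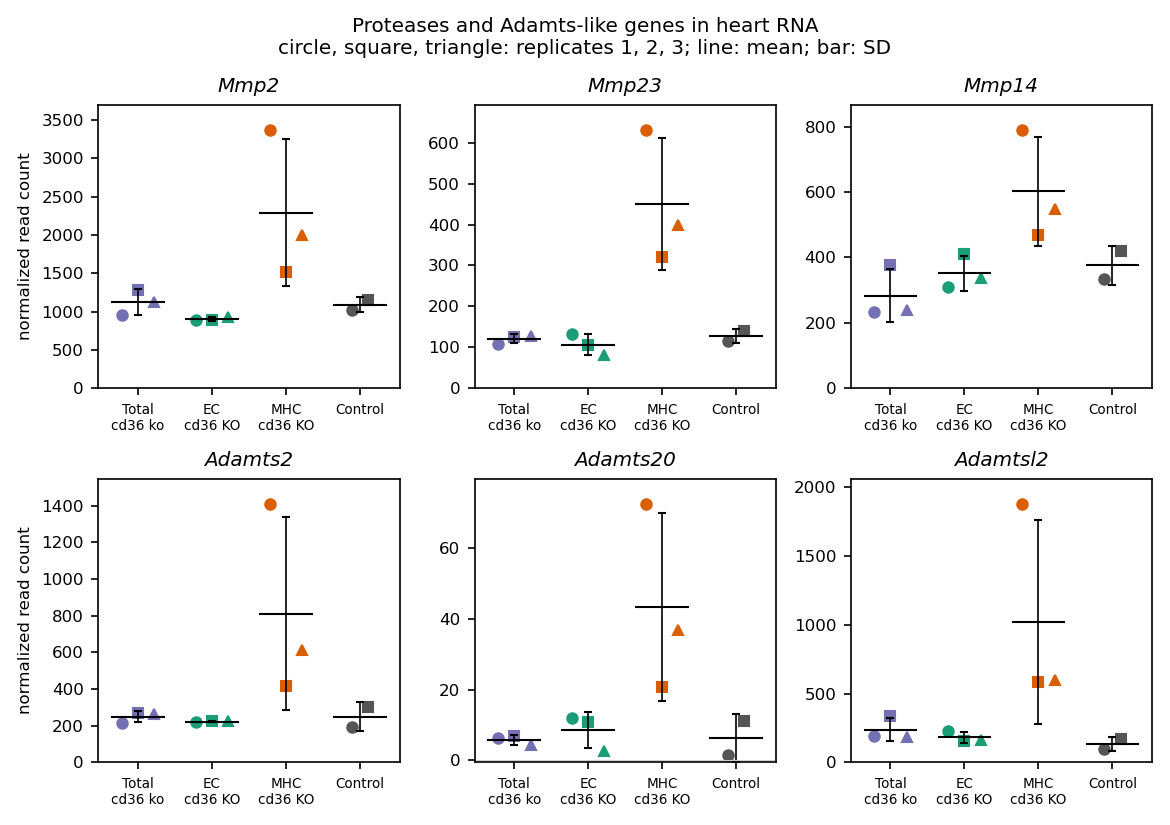
Normalized read counts of Mmp2, Mmp23, Mmp14, Adamts2, Adamts20 and Adamtsl2 in each library, by group, with replicates as circle, square and triangle, the mean as a line and the SD as a bar. In each panel the 3 MHC cd36 KO libraries lie above the other 8, and replicate 1 is the highest.

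Few Adam genes passed. Of the 9 with a zinc site, Adam33 rose in MHC cd36 KO hearts against Control, and of the 3 without one, none passed. Adam33 (chr2:131050591-131063814, minus strand) encodes a membrane-anchored protease of mesenchymal cells. It had 44.5, 49.5 and 42.5 in Total cd36 ko hearts, 48.3, 43.5 and 46.0 in EC cd36 KO hearts and 61.7, 56.3 and 67.1 in MHC cd36 KO hearts, against 34.2 and 29.8 in Control hearts. Highest were the MHC cd36 KO hearts, at 1.93 times Control, and the Control hearts were the lowest of the 11. The log2 difference was 0.93 ± 0.20 (SE), adjusted p = 0.0237 by limma. It was not called without MHC cd36 KO replicates 1 (0.92) or 3 (0.86) or without either Control replicate 1 (1.02) or 2 (0.83), and neither of the other deleted groups differed from MHC cd36 KO by the test.

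Adam15, a membrane-anchored protease of endothelial and other cells, had 1430, 1380 and 1338 in Total cd36 ko hearts, 1589, 1565 and 1614 in EC cd36 KO hearts and 1812, 1449 and 1404 in MHC cd36 KO hearts, against 1338 and 1477 in Control hearts. The groups overlapped, and MHC cd36 KO minus Control was 0.14 ± 0.11 (SE), adjusted p = 0.551 by limma. The main sheddases Adam10 and Adam17, which release Notch and growth factor ligands, averaged 765 ± 18.1 and 632 ± 57.9 in MHC cd36 KO hearts, against 798 ± 122 and 565 ± 79.2 in Control hearts (SD, n = 3 and n = 2). Their limma differences of -0.053 and 0.16 did not pass. Adam12, a protease of developing and regenerating muscle, had 10.2, 5.12 and 8.34 in Total cd36 ko hearts, 0, 5.85 and 7.07 in EC cd36 KO hearts and 23.9, 11.7 and 10.6 in MHC cd36 KO hearts, against 5.44 and 2.98 in Control hearts, so that the MHC cd36 KO hearts were highest at a level of few reads, and its difference of 1.61 did not pass (adjusted p = 0.284, limma).

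The Adam genes without a zinc site encode adhesion and signalling proteins known mostly from the nervous system. Adam11 had 293, 257 and 291 in Total cd36 ko hearts, 259.8, 239 and 218 in EC cd36 KO hearts and 219.9, 267 and 339 in MHC cd36 KO hearts, against 261 and 382 in Control hearts, and MHC cd36 KO minus Control was -0.22 ± 0.19 (SE), adjusted p = 0.581 by limma, or 0.055 without Control replicate 2. Adam22 had 80.2, 269 and 265 in MHC cd36 KO hearts, against 349.8 and 313 in Control hearts, so that all 3 MHC cd36 KO hearts were below both Control hearts and replicate 1 was far the lowest; its log2 difference was -0.88 ± 0.40 (SE), adjusted p = 0.235 by limma. The exons of Adam1a overlap several genes, 63.7% of them on the same strand with Gm42878, so its counts of 30.2 to 105 are uncertain.

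Among the 7 Adamts genes grouped as proteoglycanases, which cut versican and aggrecan, Adamts20 rose in MHC cd36 KO hearts. Adamts20 (chr15:94270163-94465418, minus strand) had 6.36, 6.82 and 4.17 in Total cd36 ko hearts, 12.1, 10.9 and 2.65 in EC cd36 KO hearts and 72.5, 20.7 and 36.8 in MHC cd36 KO hearts, against 1.55 and 11.2 in Control hearts. The MHC cd36 KO hearts were above all others, but the level rested on few reads and spread 3.5-fold within the group. The log2 difference was 2.81 ± 0.74 (SE), adjusted p = 0.0463 by limma. It was not called without Control replicate 1 (1.69), MHC cd36 KO replicates 1 (2.36) or 3 (2.84), EC cd36 KO replicate 2 or any 1 Total cd36 ko library (2.81 for each), nor with a pseudocount of 0.5, no filter, quantile normalization or array weights, and was 3.94 without Control replicate 2. EC cd36 KO minus MHC cd36 KO, -2.24, was not called without EC cd36 KO replicates 2 (-2.50) or 3 (-1.65) or MHC cd36 KO replicates 1 (-1.79) or 3 (-2.27). Total cd36 ko minus MHC cd36 KO, -2.55, was not called without MHC cd36 KO replicates 1 (-2.10) or 3 (-2.58) or any 1 Total cd36 ko library (-2.67 to -2.37). Without replicate 1 of the 3 deleted groups together these were -2.12 and -2.17, and neither was called.

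Adamts1, which cuts versican and is induced by growth signals and inflammation, had 1234, 453 and 615 in Total cd36 ko hearts, 471, 467 and 370.4 in EC cd36 KO hearts and 812, 712 and 579.8 in MHC cd36 KO hearts, against 595 and 1587 in Control hearts. Control replicate 2 was the highest of all hearts, and MHC cd36 KO minus Control was -0.48 ± 0.40 (SE), adjusted p = 0.557 by limma, or 0.22 without Control replicate 2. EC cd36 KO minus Control was -1.16 ± 0.40 (SE), adjusted p = 0.333; every EC cd36 KO heart was below both Control hearts, but the size depended on them, at -1.87 without Control replicate 1 and -0.45 without Control replicate 2. Adamts4, aggrecanase-1, had 8.91, 26.4 and 17.5 in Total cd36 ko hearts, 30.2, 40.97 and 27.4 in EC cd36 KO hearts and 66.3, 45.3 and 31.1 in MHC cd36 KO hearts, against 27.2 and 28.3 in Control hearts. It was lower in Total cd36 ko than in MHC cd36 KO hearts, by -1.44 ± 0.37 (SE), adjusted p = 0.0218 by limma, while MHC cd36 KO minus Control was 0.69 and did not pass. That call was lost without MHC cd36 KO replicate 1 (-1.17), Total cd36 ko replicate 1 (-1.04) or Total cd36 ko replicate 3 (-1.49), and without replicate 1 of the 3 deleted groups together (-0.77).

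The remaining proteoglycanases did not pass against Control in MHC cd36 KO hearts. Adamts15 had 272, 337 and 201 in MHC cd36 KO hearts, against 132 and 158 in Control hearts, without overlap, and a log2 difference of 0.87 ± 0.25 (SE), adjusted p = 0.0662 by limma. Adamts8 was 1.76 ± 0.60 (SE), adjusted p = 0.113, at 44.7, 18.8 and 13.9 in MHC cd36 KO hearts, against 5.44 and 6.71 in Control hearts. Adamts5, aggrecanase-2, and Adamts9 lay at 0.25 and -0.16.

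Adamts2 (chr11:50602084-50807573, plus strand), the procollagen N-proteinase that removes the amino-terminal propeptide of fibrillar procollagens, rose in MHC cd36 KO hearts, and the other 2 genes of this group did not. Adamts2 had 216, 268 and 262 in Total cd36 ko hearts, 218, 224 and 224 in EC cd36 KO hearts and 1407, 413 and 610.1 in MHC cd36 KO hearts, against 193 and 303 in Control hearts. Each MHC cd36 KO heart lay above all others, with replicate 1 at 3.41 times replicate 2. On the log2 scale the difference was 1.55 ± 0.37 (SE), adjusted p = 0.0325 by limma, with 1.05 without MHC cd36 KO replicate 1; it was not called without Control replicate 1 (1.22) or Total cd36 ko replicate 3 (1.55). For EC cd36 KO and Total cd36 ko minus MHC cd36 KO it was -1.67 and -1.51, which passed without any 1 library. Total cd36 ko minus MHC cd36 KO came to -0.92 without replicate 1 of the 3 deleted groups. Adamts3 and Adamts14, the related N-proteinases, were -0.23 and -0.076 against Control. Adamts3 had 215, 142 and 117 in Total cd36 ko hearts, 181, 176 and 134 in EC cd36 KO hearts and 109, 111 and 99.8 in MHC cd36 KO hearts, against 126 and 124 in Control hearts, so that the MHC cd36 KO hearts were below the other 8, with no contrast past the threshold.

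Of the 6 other Adamts genes none passed against Control. Adamts10, which binds fibrillin microfibrils, had 505, 564 and 529 in Total cd36 ko hearts, 580.0, 488 and 513 in EC cd36 KO hearts and 751, 619.7 and 647 in MHC cd36 KO hearts, against 533 and 477 in Control hearts. All 3 MHC cd36 KO hearts exceeded the other 8. MHC cd36 KO minus Control was 0.41 ± 0.12 (SE), adjusted p = 0.0649 by limma, while edgeR and DESeq2 called it (log2 0.41 and 0.41). The EC cd36 KO minus MHC cd36 KO difference was -0.35 ± 0.11 (SE), adjusted p = 0.0367; it was not called without EC cd36 KO replicates 2 (-0.30) or 3 (-0.33), MHC cd36 KO replicates 1 (-0.27) or 3 (-0.38) or Total cd36 ko replicate 3 (-0.35), nor without replicate 1 of the 3 deleted groups together (-0.34).

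Adamts12, which cuts cartilage oligomeric matrix protein, had 7.64, 14.5 and 13.3 in Total cd36 ko hearts, 36.2, 17.6 and 23.0 in EC cd36 KO hearts and 48.6, 23.3 and 35.2 in MHC cd36 KO hearts, against 22.5 and 17.9 in Control hearts. Total cd36 ko hearts were lowest, and Total cd36 ko minus MHC cd36 KO was -1.50 ± 0.36 (SE), adjusted p = 0.0170 by limma. That call was lost without MHC cd36 KO replicate 1 (-1.25) or Total cd36 ko replicate 1 (-1.24), and was -0.99 without replicate 1 of the 3 deleted groups. MHC cd36 KO minus Control was 0.74 and did not pass. Adamts6, Adamts7, Adamts17 and Adamts19 lay between -0.64 and 1.102 in MHC cd36 KO minus Control.

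The Adamts-like proteins keep the ancillary domains of Adamts enzymes and lack the protease domain. Of the 5 genes, Adamtsl2 rose in MHC cd36 KO hearts against Control. Adamtsl2 (chr2:27079379-27108981, plus strand) encodes a microfibril protein that binds fibrillin and latent TGF-beta binding protein. It had 192, 337 and 185 in Total cd36 ko hearts, 229.6, 153 and 160.0 in EC cd36 KO hearts and 1877, 585 and 600.3 in MHC cd36 KO hearts, against 97.2 and 168 in Control hearts. Hearts of the MHC cd36 KO group averaged 7.69 times Control and did not overlap the rest. The log2 difference was 2.76 ± 0.44 (SE), adjusted p = 0.00816 by limma, with 2.20 without MHC cd36 KO replicate 1; it was not called without Control replicate 1 (2.36). For EC cd36 KO and Total cd36 ko minus MHC cd36 KO it was -2.29 and -1.92, which passed without any 1 library. Total cd36 ko minus MHC cd36 KO came to -1.24 without replicate 1 of the 3 deleted groups.

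Adamtsl4, a fibrillin-binding protein, had 1192, 747 and 941 in Total cd36 ko hearts, 1027, 893 and 758 in EC cd36 KO hearts and 1592, 1467 and 1503 in MHC cd36 KO hearts, against 979 and 1353 in Control hearts. All MHC cd36 KO hearts lay above the other 8. MHC cd36 KO minus Control was 0.40 ± 0.19 (SE), adjusted p = 0.253 by limma. It was higher in MHC cd36 KO than in the other deleted hearts: EC cd36 KO minus MHC cd36 KO was -0.78 ± 0.17 (SE), adjusted p = 0.00831, called without any 1 library, and Total cd36 ko minus MHC cd36 KO was -0.69, not called without MHC cd36 KO replicate 1 (-0.66) or Total cd36 ko replicates 2 (-0.52) or 3 (-0.69). Adamtsl5 had 1318, 1305 and 1357 in Total cd36 ko hearts, 1015, 1266 and 1169 in EC cd36 KO hearts and 1855, 1811 and 1537 in MHC cd36 KO hearts, against 1038 and 1494 in Control hearts. Its 3 MHC cd36 KO hearts were also the highest. EC cd36 KO minus MHC cd36 KO was -0.59 ± 0.13 (SE), adjusted p = 0.00938, called without any 1 library and not called without replicate 1 of the 3 deleted groups (-0.46). MHC cd36 KO minus Control was 0.47 ± 0.15 (SE), adjusted p = 0.0844 by limma, and it was called without Control replicate 2 (0.74), with quantile normalization (0.51), with equal library totals (0.56) and by DESeq2 (0.46).

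Within the MHC cd36 KO group, replicate 1 was the highest of the 3 hearts in 7 of the 8 risen genes, all but Adam33. It was the highest in 39.4% of all genes. The 8 were chosen as called higher in these hearts, and the share among all genes called higher was not counted. Among the 8, the ratio of the highest to the lowest MHC cd36 KO heart ran from 1.19 for Adam33 to 3.5 for Adamts20. All 3 MHC cd36 KO hearts lay above the other 8 in 14 of the 48 genes (29.2%), against 8.91% of all genes, and below them in 2 (4.17%), Timp4 and Adamts3, against 7.54%. Among the genes under the threshold, Mmp12, the macrophage elastase, was just outside it. It had 1.27, 4.26 and 1.67 in Total cd36 ko hearts, 0, 0.836 and 0.884 in EC cd36 KO hearts and 12.3, 9.71 and 15.5 in MHC cd36 KO hearts, against 1.55 and 3.73 in Control hearts; it was not tested.

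Genes that work with these proteases moved in part. Of 18 tested partners (activators, serpins, clearance receptors and sheddase cofactors), 2 rose in MHC cd36 KO hearts against Control and none fell, with a median log2 difference of 0.16 and 5.35% of all genes called. Lrp1, the endocytic receptor that clears Mmp, Adamts and Timp proteins, had 7188, 4590 and 5583 in MHC cd36 KO hearts, against 2402 and 3190 in Control hearts and was 1.04 ± 0.16 (SE), adjusted p = 0.00797 by limma. Serpinf1, which encodes pigment epithelium-derived factor, had 2527, 747 and 1080 in MHC cd36 KO hearts, against 344 and 437 in Control hearts and was 1.71 ± 0.36 (SE), adjusted p = 0.0224. Of 17 tested other matrix proteases 4 rose and 1 fell. Prss23, a secreted serine protease, was 1.06 ± 0.15 (SE), adjusted p = 0.00532, and the cysteine cathepsins Ctss and Ctsk were 1.38 and 1.36, while Mme, neprilysin, was -1.79. Htra3, a serine protease that cuts proteoglycans, was 0.61. Ctsl, a lysosomal cathepsin, was the 1 gene of these lists called in EC cd36 KO hearts against Control, at 0.97 ± 0.17 (SE), adjusted p = 0.0380 by limma; leaving out any 1 EC cd36 KO or Control library, MHC cd36 KO replicate 3, or Total cd36 ko replicates 2 or 3 ended that call (0.81 to 1.13).

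Of 18 tested matrix substrates of the proteases 7 rose in MHC cd36 KO hearts against Control and none fell, where 3.1% of all genes rose and 2.24% fell, with a median log2 difference of 1.004, while 0 were called in Total cd36 ko or EC cd36 KO hearts against Control. Fbn1, the fibrillin of microfibrils that Adamts10 and Adamtsl2 bind, was 1.39 ± 0.24 (SE), adjusted p = 0.0117. Comp, cartilage oligomeric matrix protein and a substrate of Adamts7 and Adamts12, had 1076, 80.3 and 167 in MHC cd36 KO hearts, against 20.2 and 8.20 in Control hearts and was 4.13 ± 0.79 (SE), adjusted p = 0.0164. Bgn (biglycan), Fn1 (fibronectin) and Eln (elastin) were 1.78, 1.28 and 1.47. In EC cd36 KO minus MHC cd36 KO 13 of the 18 were lower, against 9.9% of all genes, and in Total cd36 ko minus MHC cd36 KO 12, against 7.73%. Without Control replicate 1 none of the 12 partners, other proteases and substrates named here for MHC cd36 KO was called: Lrp1 was 0.83, Serpinf1 1.54, Prss23 1.06, Ctss 1.41, Ctsk 1.23, Mme -1.76, Htra3 0.66, Fbn1 1.43, Comp 4.73, Bgn 1.61, Fn1 0.97 and Eln 1.49. Without Control replicate 2 the calls of Ctss (1.35), Ctsk (1.49), Mme (-1.81), Htra3 (0.57), Comp (3.53) and Eln (1.45) were lost. Without MHC cd36 KO replicate 1 those of Ctsk (0.997) and Htra3 (0.43) were lost, and Comp was 3.06 (4.93 without replicate 2) and Eln 0.97; Ctsk and Htra3 also lost theirs without MHC cd36 KO replicate 3, EC cd36 KO replicate 2 or any 1 Total cd36 ko library, and Htra3 without EC cd36 KO replicate 3.

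Marker genes of other cell types moved with these groups. Heart muscle was plain in every library: the 8 cardiomyocyte markers summed to 1207836, 1131216 and 1162603 in Total cd36 ko hearts, 1219186, 1206510 and 1162220 in EC cd36 KO hearts and 672454, 974924 and 930427 in MHC cd36 KO hearts, against 1062025 and 1097608 in Control hearts, and 0 of 8 were called in MHC cd36 KO against Control. These sums were lowest in MHC cd36 KO hearts, without overlap. Myh6 was the largest part of each sum, and its log2 difference of -0.48 from Control in MHC cd36 KO hearts was not called. Differences of the 8 markers ran from -0.67 to -0.08. In EC cd36 KO minus MHC cd36 KO 2 of 8, Tnni3 and Ryr2, were higher, against 8.08% of all genes. In Total cd36 ko minus MHC cd36 KO 1 of 8, Ryr2, was higher, against 7.63%. The 12 fibroblast markers summed to 39864, 47219 and 44159 in Total cd36 ko hearts, 42767, 42514 and 40855 in EC cd36 KO hearts and 79803, 54661 and 71949 in MHC cd36 KO hearts, against 43691 and 47143 in Control hearts, and 6 of 12 rose in MHC cd36 KO against Control, where 3.1% of all genes rose. The 8 myofibroblast markers summed to 1885, 3270 and 2357 in Total cd36 ko hearts, 1964, 1955 and 1819 in EC cd36 KO hearts and 40025, 7775 and 9440 in MHC cd36 KO hearts, against 1631 and 2625 in Control hearts, and 4 of 8 rose; Comp stands in this list and in that of the substrates. The 11 macrophage markers summed to 4990, 6867 and 5497 in Total cd36 ko hearts, 4943, 4923 and 5678 in EC cd36 KO hearts and 17624, 9708 and 11858 in MHC cd36 KO hearts, against 5303 and 5615 in Control hearts, and 9 of 11 rose. In the sums of fibroblast, myofibroblast and macrophage markers the 3 MHC cd36 KO hearts lay above all other hearts. They did so too in 14 of the 48 family genes, against 8.91% of all genes. The 14 include Timp1, Timp2, Mmp2, Mmp23, Adamts2, Adamts20 and Adamtsl2. Those 7 were called higher in MHC cd36 KO than in each other group, so their order was nearly given by that choice. Most of the fibroblast sums came from Gsn and Dcn, whose log2 differences from Control of 0.22 and 0.48 were not called. The differences of the 12 fibroblast markers ran from 0.20 to 2.22. Other lists share genes too. Dcn and Lum are also in the list of substrates, and the myofibroblast marker Fap is also in that of the other matrix proteases. So are the mast cell markers Cpa3, Cma1, Mcpt4 and Tpsb2.

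Other lists did not follow that order. The 10 endothelial markers summed to 16327 to 16928 in MHC cd36 KO hearts and 18285 to 18703 in Control hearts, lower without overlap. Against Control 0 of 10 were called. In EC cd36 KO minus MHC cd36 KO 5 of 10 were higher, against 8.08% of all genes. For Total cd36 ko minus MHC cd36 KO 1 was higher and 1 lower, against 7.63% and 7.73%. Of 8 mural markers 2, Rgs5 and Kcnj8, fell in MHC cd36 KO hearts against Control, where 2.24% of all genes fell. The sums of 13733 to 14632 in MHC cd36 KO hearts overlapped the 13967 to 15736 of Control hearts. In EC cd36 KO minus MHC cd36 KO 3 of 8 were higher and 1, Cspg4, was lower, against 8.08% and 9.9% of all genes. Cspg4 was also the 1 mural marker called in Total cd36 ko minus MHC cd36 KO, again lower, against 7.73% of all genes. Markers of neutrophils (sums of 18.1 to 82.4, 2 tested), lymphocytes (29.3 to 63.0, 3 tested) and mast cells (121 to 212, 6 tested) were low in every library. Against Control 0 were called. The neutrophil marker Csf3r was called lower in EC cd36 KO minus MHC cd36 KO, where 9.9% of all genes were lower. Of 5 tested skeletal muscle markers 1, Acta1, which the stressed heart also expresses, rose against Control both in Total cd36 ko hearts (2.43 ± 0.39 (SE), adjusted p = 0.0484) and in MHC cd36 KO hearts (1.88 ± 0.39 (SE), adjusted p = 0.0223; limma). The skeletal muscle sums were 39189 to 56866 in Total cd36 ko hearts, above all other hearts. Nearly all of each sum was Ckm and Acta1. Ckm averaged 27724 in Total cd36 ko and 26344 in Control hearts, and Acta1 averaged 17575 and 2997. In MHC cd36 KO hearts Ckm had 15107, 21790 and 20135, below all other hearts. Of the 5 markers 1, Ckm, was called higher in EC cd36 KO minus MHC cd36 KO, against 8.08% of all genes. It was also the 1 called in Total cd36 ko minus MHC cd36 KO, again higher, against 7.63%. Every other marker of that list had at most 9.18 in any Total cd36 ko heart. No listed marker present in the table was at 0 in all libraries. The part of a changed cell make-up in the levels of the proteases and inhibitors was not tested.

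**Figure D5:**
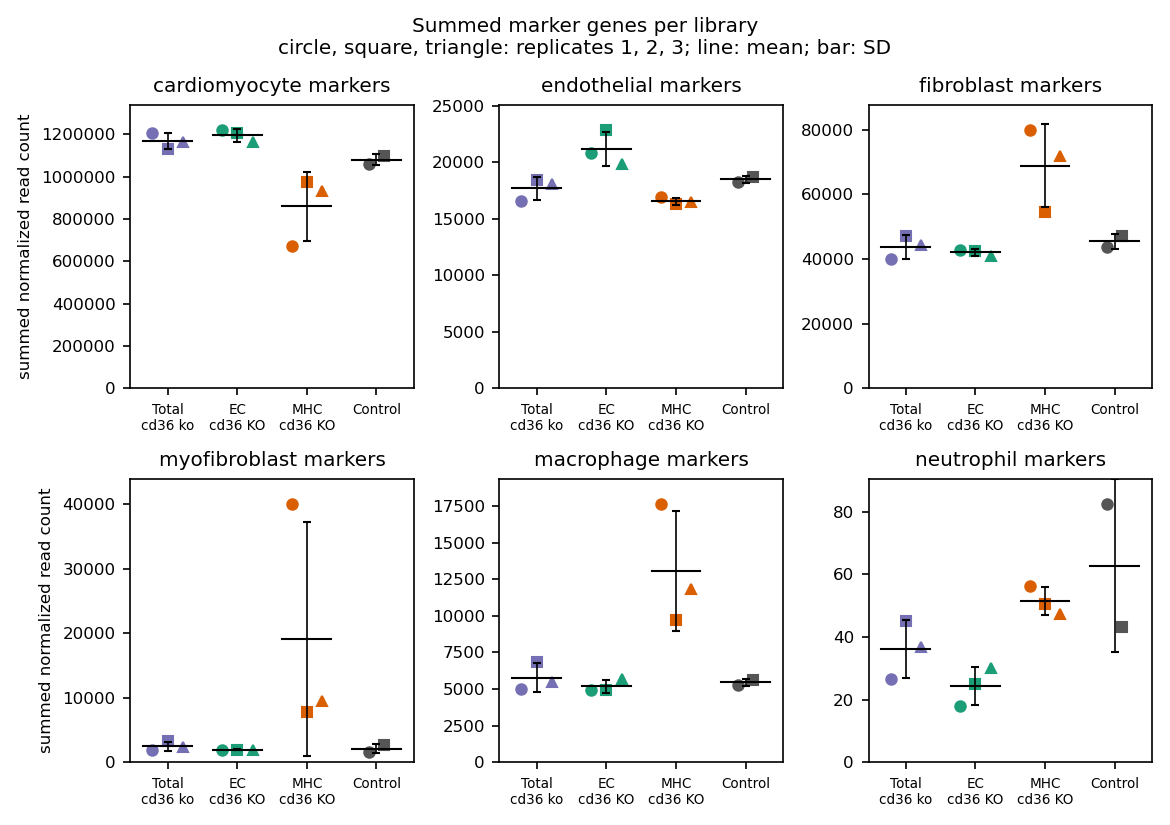
Summed normalized read counts of the marker genes of 6 cell types in each library, by group, with replicates as circle, square and triangle, the mean as a line and the SD as a bar. The MHC cd36 KO libraries are the highest for fibroblast, myofibroblast and macrophage markers and the lowest for cardiomyocyte markers, and neutrophil markers sum to at most 82.4 in any library.

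In Total cd36 ko and EC cd36 KO hearts no family gene passed against Control. Log2 differences ran from -0.79 (Adamts17) to 0.83 (Adamtsl2) in Total cd36 ko minus Control and from -1.16 (Adamts1) to 0.79 (Adamts15) in EC cd36 KO minus Control, and that of Adamts1 was -0.45 without Control replicate 2. Their medians were -0.02 and -0.05, against -0.002 and -0.015 for all genes. The libraries did not overlap Control upward in 4 and downward in 7 of the 48 genes for Total cd36 ko, against 12.1% and 12.8% of all genes. For EC cd36 KO this held for 6 upward and 9 downward, against 11.8% and 13% of all genes. The 2 smallest unadjusted p-values were those of Adam33 and Timp3 in Total cd36 ko and of Timp3 and Adamts15 in EC cd36 KO, each a higher level than in Control (0.50, 0.24, 0.40 and 0.79), and none passed after adjustment. With 2 Control hearts, a difference that did not pass does not show that the levels were alike.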

How the data were processed

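Heart RNA of 11 libraries was measured. Per the labels, 400 ng of total RNA went into a stranded, ribosomal-depleted library. Per the submitters' processing notes, TopHat2, HTSeq 0.8.0, DESeq2 3.5 and mm10 were used; strand setting and annotation are not given in the sources used here. The authors deposited 1 table of normalized counts (a signal: gene counts divided by size factors). Dividing each library by its smallest step gave whole reads for 257620 of 257620 values (100.0%, tolerance 0.05). Genes with a mean of at least 5 (13787 of 23420) were fitted with limma 3.58.1 (R 4.3.3; trended prior) on log2(value + 1) over 4 groups, which understates changes of low genes, with Benjamini-Hochberg adjustment over all genes and calls under 0.05. The pseudocount was 1. EdgeR 4.0.16 and DESeq2 1.42.0 on the recovered reads were alternatives, of which edgeR called 1041 genes in MHC cd36 KO minus Control. The fitting was tested on simulated data with the same spread setting for every gene and no outlying library, so that test does not bear on single calls here. No 2 libraries of a group agreed within sampling noise (chi-square per degree of freedom 2.87 to 54.1).

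Exon lengths, positions and coding sequences came from GENCODE M21 on GRCm38, the build of the labels. Genes are given in every library if they are Timp genes, among the 14 called genes of lowest adjusted p, or highest in their role. Outside that rule, and chosen after their values were seen, Adam12, Mmp9, Mmp12 and Adamts3 are also given in every library, and other genes by means, ranges or single values. The genes, the lists of partners, proteases, substrates and markers, and the libraries doubted were chosen with earlier results of these data known.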

Additional observations from a re-analysis of the deposited data

How the results depend on the processing

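No paired analysis was possible because the labels give the groups no shared replicate numbers. Over 14 other settings, the number of family genes called kept within 1.5 times of the reported number, apart from MHC cd36 KO minus Control with those groups fitted alone (2 against 9) and EC cd36 KO minus Control by DESeq2 (1 against 0). Leaving out each library gave 1 to 9 genes for MHC cd36 KO minus Control, 9 to 14 for EC cd36 KO minus MHC cd36 KO, 7 to 14 for Total cd36 ko minus MHC cd36 KO (7 without MHC cd36 KO replicate 1 or Total cd36 ko replicate 1), 7 to 13 for the F test, and 0 to 0 for the other contrasts. Without replicate 1 of the 3 deleted groups together there were 7, 9 and 8 in those 3 contrasts and 8 by the F test. For the 65 differences of named genes, 835 of 902 values under other settings and 607 of 715 with 1 library left out kept direction and call; 55 and 103 lost the call, 11 and 2 gained it and 1 and 3 turned sign. Those that turned sign had not been called in MHC cd36 KO minus Control: Mmp15 was 0.042 with equal library totals, and over the libraries left out it ran from -0.55 to 0.46, Adam11 from -0.49 to 0.055 and Adamts1 from -1.19 to 0.22, each turning without Control replicate 2. The differences called under every setting and exclusion were those of Timp1 in 3 contrasts, of Timp2, Mmp23, Adamtsl2 and Adamts2 in EC cd36 KO and Total cd36 ko minus MHC cd36 KO, and of Timp4, Mmp2 and Adamtsl4 in EC cd36 KO minus MHC cd36 KO. The cause of the other lost calls was not tested. Over all genes DESeq2 called 96, 161 and 69 in Total cd36 ko minus Control, EC cd36 KO minus Control and Total cd36 ko minus EC cd36 KO, where limma called 11, 36 and 5. Mmp2 and Adamts2 also lost their MHC cd36 KO minus Control call with a robust prior, and Mmp2 with no filter; Mmp11 lost its own with no filter, quantile normalization or edgeR. Genes of few reads, such as Adamts20, and the 2 Control libraries limit the precision.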
